A study of Mus musculus with 6 samples.

Results

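The circadian clock genes described here were Per1, Per2, Per3, Cry1, Cry2, Clock, Nr1d1, Nr1d2, Dbp and Tef, chosen by symbol and matched to the Ensembl identifiers of the count files. All 10 were found among 56940 genes, and all 10 had enough counts to be tested. RNA was sequenced from mouse lens capsules with the lens epithelial cells still attached to them. In this model of cataract surgery the fiber cell mass is taken out through an incision and the capsule stays in the eye. Capsules taken 72 h after surgery (3 libraries) were compared with capsules taken at 0 h (3 libraries), each library being a pool of 5 capsules. Both groups were wildtype C57BL/6 mice by their labels, although every sample description also has RUNX_Cre_N in it, a tag left unexplained there, and no age was given.

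The series text places surgery on the first eye 72 h before surgery on the second, with the mouse killed and both capsules taken after the second operation. Capsules of both intervals from a given mouse were thus collected in the same session. Neither the hour of collection nor the light schedule is stated, so the phase of the day at which the clock was sampled is unknown. The sources do not say that equal replicate numbers mark the same mice.

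The mammalian clock is a transcriptional loop. CLOCK pairs with BMAL1 on E-box elements and switches on the Period and Cryptochrome genes, whose proteins then repress that pair. A second loop runs through REV-ERBα and REV-ERBβ, the products of Nr1d1 and Nr1d2, which repress Bmal1 at elements that ROR receptors activate. Dbp and Tef encode PAR-bZIP factors, outputs of the loop that act on D-box elements, where the product of Nfil3 competes with them. Such clocks run in most tissues of the body, those of the eye among them.

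Levels are read counts on the usual CPM scale, relative to the TMM-adjusted library size, and genes were called by edgeR's quasi-likelihood test at a Benjamini-Hochberg adjusted p under 0.05 over all 15407 tested genes. Libraries held 8453450 to 8945397 counts in genes at 72 h and 11338820 to 12432688 at 0 h. Markers of lens epithelium, the labelled cell type, were present in every library, summing to 1315 to 1524 CPM at 72 h and 2749 to 2806 CPM at 0 h. Of the 7, 5 fell, while Pax6 and Six3 were not called, and all 7 tested lens fiber markers fell. Macrophage and monocyte markers rose for 10 of 12 (215 to 377 CPM in sum at 72 h, 30.8 to 45.4 CPM at 0 h), and photoreceptor markers fell for 9 of 10 (60.8 to 185 CPM at 72 h, 740 to 1835 CPM at 0 h, the highest sum in 0 h replicate 1). Of 8 neutrophil markers Ly6g, Mpo, Elane and Camp had 0 counts in every library, and the list summed to 6.82 to 142 CPM at 72 h and 0.0847 to 1.10 CPM at 0 h. Only 2 neutrophil markers were tested, of which 1 was called higher and Ltf was not called. Ltf gave 135 of the 142 CPM of 72 h replicate 3. Without Ltf the list summed to 14.2, 3.12 and 6.73 CPM at 72 h, against 0.173, 0.0847 and 0.237 CPM at 0 h. T cell markers summed to 0 to 1.83 CPM at 72 h and 0 to 0.259 CPM at 0 h. Keratins of surface epithelium summed to 6.48, 99.8 and 4527 CPM in 72 h replicates 1, 2 and 3, and 17.1 to 44.4 CPM at 0 h. Pigment cell markers summed to 17.1 to 63.6 CPM at 72 h and 30.1 to 67.8 CPM at 0 h, and 1 of 5 was called lower. Endothelial markers summed to 6.25 to 17.4 CPM at 72 h and 4.34 to 10.03 CPM at 0 h, with none of the 2 tested called. Both sums overlapped between the groups.

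Most of the clock genes were lower at 72 h. Of the 10 genes, 9 fell and Cry1 was not called. Over all tested genes 17.5% were called lower and 38.5% in either direction. None of the 10 was called higher, against 21.0% of all tested genes, but they were chosen with earlier results of these data known. Of 29 further clock pathway genes, given below, 6 were called higher and 7 lower. The fitted log2 changes of the 10 clock genes were all negative. DESeq2 and limma voom each also called 9 of them lower and 0 higher. The median log2 fold change of the 10 genes was −1.42, while that of all tested genes was −0.02. Falls of at least 2-fold were called for 6 of the 10, compared with 10.4% of all tested genes. In the 9 genes called lower every 72 h library lay below every 0 h library, as it did for 26.9% of all tested genes. The calls rest on the same values, so this is not separate support for them. The groups stood apart in the higher direction for 26.5% and in either direction for 53.5% of all tested genes. The part of macrophages, photoreceptors and the other marked cells in the clock gene differences was not tested. The same 9 genes were called lower without 72 h replicate 3, without 0 h replicate 1 and without both.

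**Figure D1:**
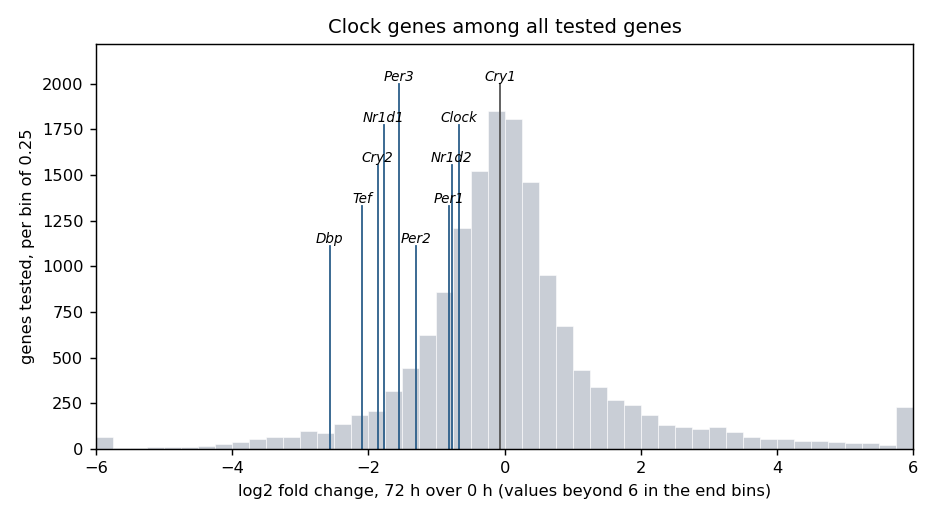
Histogram of log2 fold changes, 72 h over 0 h, for the 15407 tested genes (vertical axis, genes per bin of 0.25), with a line at each clock gene (blue where called lower, grey where not called). The clock genes run from −2.57 for Dbp to −0.06 for Cry1, and 268 genes beyond 6 in either direction are drawn in the end bins.

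Summed over the 10 genes, the level was 393, 424 and 473 CPM in the 72 h libraries, against 1184, 1146 and 1115 CPM in the 0 h libraries. Each of these genes rested on 134 to 930 counts per library at 72 h and on 179 to 3429 at 0 h. In bulk RNA, fewer cells of a type and less RNA per cell cannot be told apart.

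**Figure D2:**
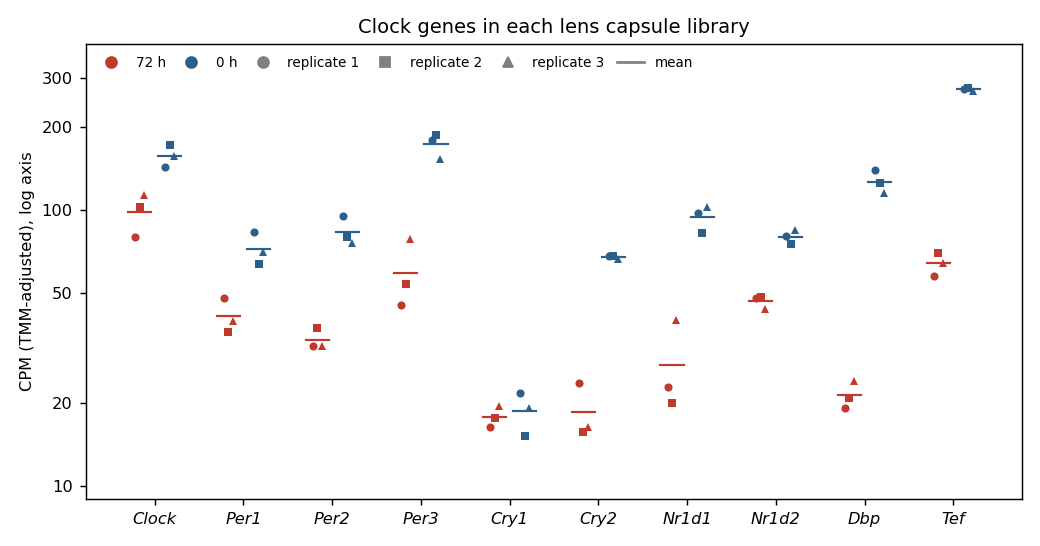
CPM of each clock gene in every library (log axis), with 72 h in red left of 0 h in blue, marker shape giving the replicate and a bar the group mean. In 9 genes the 72 h points lie below all 0 h points, and for Cry1 the groups overlap.

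Promoters of these genes are shown because the clock proteins act through short elements near their starts, which lets the genes be compared by the elements they carry. RefSeq windows from 250 bases before to 50 bases after a start (build GRCm38.p6, which is not the build of the counts) were found for 9 of the 10 genes, in 13 windows. Per2 had none. Searched on both strands, the E-box CACGTG was present for Per1, Cry1 and Tef. The variant CACGTT, called E′-box, was found for Cry1, Cry2 and Nr1d1, and the D-box TTATGTAA for Per3. Neither the D-box TTACGTAA nor the ROR element (AA, any base, then TAGGTCA) was in any window of these genes. Of all 32851 windows of that length, 7.15% held the E-box, 4.68% the E′-box, 0.938% the first D-box, 0.119% the second and 0.219% the ROR element. Counted by gene, as the clock genes are here, the shares of 27025 genes with a window were 8.09% for the E-box, 5.44% for the E′-box, 1.11% and 0.126% for the first and second D-box and 0.259% for the ROR element. No match overlapped another. Bmal1 is not among the 10 and is shown because the REV-ERBs encoded by Nr1d1 and Nr1d2 act on its ROR elements. Below, capitals mark the matches, and each window is written on the strand of its gene.
Per1, chr11:69098699-69098998, plus strand, E-box: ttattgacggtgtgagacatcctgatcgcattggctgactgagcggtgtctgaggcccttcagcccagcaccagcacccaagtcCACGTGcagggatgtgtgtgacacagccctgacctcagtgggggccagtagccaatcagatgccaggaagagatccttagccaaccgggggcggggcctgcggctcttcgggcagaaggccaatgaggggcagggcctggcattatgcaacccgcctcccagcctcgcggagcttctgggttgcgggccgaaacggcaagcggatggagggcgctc
Tef, chr15:81811164-81811463, plus strand, E-box: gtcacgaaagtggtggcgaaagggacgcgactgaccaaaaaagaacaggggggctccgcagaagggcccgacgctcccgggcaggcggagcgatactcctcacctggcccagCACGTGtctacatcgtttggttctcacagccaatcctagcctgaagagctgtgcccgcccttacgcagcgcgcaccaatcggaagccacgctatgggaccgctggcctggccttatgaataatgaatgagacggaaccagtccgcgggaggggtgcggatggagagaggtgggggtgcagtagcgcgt
Cry1, chr10:85185005-85185304, minus strand, E′-box then E-box: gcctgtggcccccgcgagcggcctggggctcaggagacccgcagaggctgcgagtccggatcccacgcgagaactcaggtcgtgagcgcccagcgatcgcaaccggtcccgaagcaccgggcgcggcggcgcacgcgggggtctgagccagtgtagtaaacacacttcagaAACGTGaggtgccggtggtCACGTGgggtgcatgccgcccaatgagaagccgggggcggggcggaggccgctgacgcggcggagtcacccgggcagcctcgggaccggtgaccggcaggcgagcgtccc
Per3, chr4:151044616-151044915, minus strand, D-box at 2 places: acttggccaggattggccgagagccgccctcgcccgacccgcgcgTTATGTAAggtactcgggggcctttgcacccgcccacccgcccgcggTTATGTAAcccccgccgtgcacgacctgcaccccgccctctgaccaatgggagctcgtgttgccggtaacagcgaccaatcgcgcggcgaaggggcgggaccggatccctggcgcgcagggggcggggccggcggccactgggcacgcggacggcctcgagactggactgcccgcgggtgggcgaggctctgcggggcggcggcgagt
Bmal1, chr7:113207261-113207560, plus strand, ROR element: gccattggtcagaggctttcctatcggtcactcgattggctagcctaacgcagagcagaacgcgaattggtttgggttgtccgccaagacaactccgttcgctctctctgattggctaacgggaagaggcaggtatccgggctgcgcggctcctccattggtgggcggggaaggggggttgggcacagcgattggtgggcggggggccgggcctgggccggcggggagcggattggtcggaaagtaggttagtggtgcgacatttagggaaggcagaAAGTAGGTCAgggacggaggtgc

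The E-box began at position −166 from the start in Per1, at −138 in the Tef window printed and at −127 in the other Tef window. In Cry1 it began at −60 with the E′-box at −79. Both D-boxes of Per3 lay upstream, at −205 and −158. A match gives the letters of the window only. The genes with an E-box match included 2 that fell and Cry1, which was not called. Dbp, with the largest fitted fall, had no match of any kind in its window. Sequence outside the windows was not searched, and whether a match bears on a fall was not tested.

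**Figure D3:**
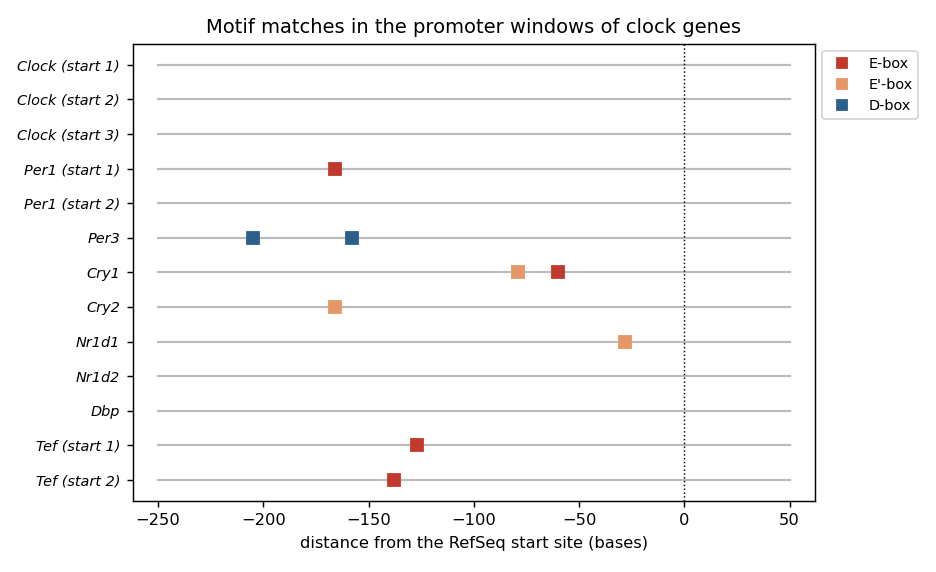
Positions of E-box, E′-box and D-box matches in 13 RefSeq promoter windows of 9 clock genes; the horizontal axis is the distance in bases from the start and each grey line is a window. Matches are spread over Per1, Per3, Cry1, Cry2, Nr1d1 and Tef, and the windows of Clock, Nr1d2 and Dbp hold none.

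Clock (ENSMUSG00000029238), the DNA-binding partner of BMAL1 in the activating pair, had the smallest fitted fall among the called genes. It stood at 79.6, 103 and 114 CPM in the 72 h libraries, against 144, 173 and 157 CPM in the 0 h libraries. Every 72 h library was below every 0 h library, by a narrow margin between 72 h replicate 3 and 0 h replicate 1. The log2 change was −0.68 ± 0.14 (SE), a 1.60-fold fall (edgeR adjusted p = 0.00395).

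The Period genes encode the repressors that accumulate in the cytoplasm and return to the nucleus with the Cryptochromes. All 3 fell. Per1 (ENSMUSG00000020893), which many stimuli induce within an hour or so in other cells, was at 47.9, 36.2 and 39.7 CPM at 72 h, against 83.1, 64.0 and 70.3 CPM at 0 h. Its log2 change was −0.81 ± 0.16 (SE; edgeR adjusted p = 0.0025). Per2 (ENSMUSG00000055866), a core repressor, was at 32.2, 37.4 and 32.2 CPM at 72 h, against 95.5, 79.7 and 75.9 CPM at 0 h. It fell 2.47-fold, a log2 change of −1.30 ± 0.14 (edgeR adjusted p = 7.44e-05). The 72 h libraries were close together for Per2, all less than the lowest 0 h library by a factor of at least 2.03.

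Per3 (ENSMUSG00000028957), the Period gene that the core loop can run without in mice, had 45.5, 54.1 and 78.6 CPM at 72 h, against 180, 187 and 153 CPM at 0 h. Replicate 3 stood above the other 72 h libraries and still below every 0 h library. Per3, whose window carries both D-box matches printed above, fell 2.92-fold, a log2 change of −1.54 ± 0.19 (edgeR adjusted p = 0.000246).

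CRY1 and CRY2 bind the CLOCK:BMAL1 pair and block it. Of their 2 genes, Cry2 fell and Cry1 was not called. Cry2 (ENSMUSG00000068742) was at 23.6, 15.7 and 16.4 CPM at 72 h, against 68.4, 68.1 and 66.4 CPM at 0 h. The 0 h libraries hardly differed, with a coefficient of variation of 1.58%, and the 72 h libraries were all far below them. The fall was 3.64-fold, a log2 change of −1.86 ± 0.18 (edgeR adjusted p = 3.4e-05). Cry1 (ENSMUSG00000020038) had 16.4, 17.7 and 19.6 CPM at 72 h, against 21.7, 15.2 and 19.2 CPM at 0 h. The groups overlapped for Cry1, and 0 h replicates 1 and 2 were the highest and the lowest of all 6 libraries. Its log2 change was −0.06 ± 0.22 (edgeR adjusted p = 0.845), with a 95% interval of −0.55 to 0.42, which does not show that the level was the same.

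Within a library, the ratio of the 2 Cryptochrome counts does not depend on how libraries are scaled. Cry1 had 0.697, 1.12 and 1.19 counts for each count of Cry2 in the 72 h libraries, against 0.318, 0.223 and 0.290 in the 0 h libraries. On the log2 scale the ratio averaged −0.03 ± 0.43 at 72 h and −1.87 ± 0.26 at 0 h (SD, n = 3 each), a difference of 1.84. The exact two-sided permutation p was 0.1, and so was its value adjusted over 5 ratios. With 3 libraries against 3, 0.1 is the smallest p this test can give, so no ratio could pass 0.05.

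Nr1d1 and Nr1d2, the genes of the REV-ERB nuclear receptors, both fell. Nr1d1 (ENSMUSG00000020889) had 22.8, 19.99 and 39.9 CPM at 72 h, against 97.3, 83.0 and 103 CPM at 0 h. Replicate 3 was the highest 72 h library and lay 2.08-fold below the lowest 0 h library. The log2 change was −1.78 ± 0.25 (edgeR adjusted p = 0.000508), and −2.13 without 72 h replicate 3. Nr1d2 (ENSMUSG00000021775) was at 48.3, 48.6 and 43.9 CPM at 72 h, against 80.7, 75.3 and 85.0 CPM at 0 h. It was the steadiest clock gene among the 72 h libraries, with a coefficient of variation of 5.61%, where that of Nr1d1 was 39.0%. The fall of Nr1d2 was 1.71-fold, a log2 change of −0.77 ± 0.12 (edgeR adjusted p = 0.000668).

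The 3′ end of Nr1d1 overlaps that of Thra, a thyroid hormone receptor gene on the opposite strand, over 263 bases or 8.55% of the Nr1d1 exons in the GENCODE annotation. The libraries were made with a stranded kit, but the strand setting of the counting was not given. Thra fell too, to 74.2, 81.0 and 75.3 CPM at 72 h, against 195, 200.4 and 213 CPM at 0 h (log2 change −1.40 ± 0.10). What part of either count comes from the other gene was not tested.

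The PAR-bZIP genes had the largest fitted falls of the 10. Dbp (ENSMUSG00000059824), an output gene of the clock with a large daily swing in many tissues, was at 19.2, 20.9 and 24.0 CPM at 72 h, against 139, 125 and 115.9 CPM at 0 h. The lowest 0 h library was 4.83-fold above the highest 72 h library. Dbp fell 5.94-fold, a log2 change of −2.57 ± 0.14 (edgeR adjusted p = 8.31e-07). Tef (ENSMUSG00000022389), which encodes a related factor, was at 57.5, 70.2 and 64.6 CPM at 72 h, against 275, 276 and 270.5 CPM at 0 h. The spread of Tef among 0 h libraries was 1.12% of its mean. It fell 4.27-fold, a log2 change of −2.09 ± 0.11 (edgeR adjusted p = 6.49e-07).

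Dbp overlaps Sphk2, a sphingosine kinase gene on the other strand, over 539 bases or 18.01% of its exons. Sphk2 was not called. Its level was 11.9, 15.9 and 23.1 CPM at 72 h, against 10.2, 7.70 and 13.8 CPM at 0 h (log2 change 0.68 ± 0.32, edgeR adjusted p = 0.122). Hlf, the other PAR-bZIP gene and not among the 10, fell to 15.4, 22.5 and 17.1 CPM at 72 h, against 151, 163 and 164 CPM at 0 h. Its log2 change was −3.12 ± 0.16 (edgeR adjusted p = 5.91e-07), and how it differs from those of Dbp and Tef was not tested.

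Other ratios within a library also separated the groups without overlap, each with the smallest possible exact permutation p of 0.1. How often ratios of other gene pairs do so was not computed, and 53.5% of single tested genes separated the groups in either direction. The ratios use the same counts as the calls and are not separate support for them. Nr1d1 had 0.473, 0.412 and 0.908 counts per count of Nr1d2 at 72 h, against 1.21, 1.10 and 1.21 at 0 h. That ratio, in counts not divided by length, was below 1 in all 3 of the 72 h libraries and above 1 in all 3 of the 0 h libraries; without 72 h replicate 3 its log2 difference was −1.41. Per1 had 1.49, 0.966 and 1.24 counts per count of Per2 at 72 h, against 0.871, 0.804 and 0.926 at 0 h. Dbp had 0.335, 0.298 and 0.372 counts per count of Tef at 72 h, against 0.508, 0.453 and 0.428 at 0 h. Bmal1 had 0.959, 0.637 and 0.654 counts per count of Nr1d1, its repressor, at 72 h, against 0.308, 0.328 and 0.260 at 0 h.

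**Figure D4:**
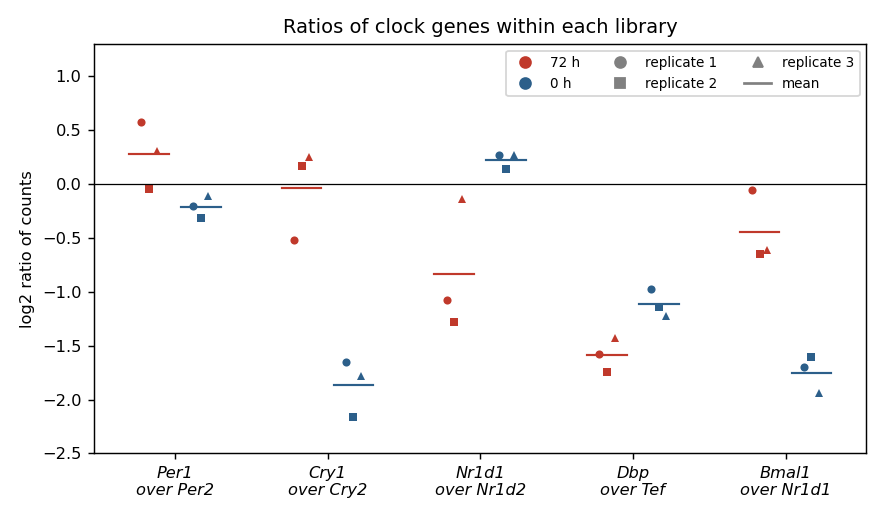
Log2 ratio of counts of 5 gene pairs within each library, 72 h in red left of 0 h in blue, marker shape giving the replicate and a bar the group mean. The groups do not overlap for any of the 5 pairs, and the difference runs from −1.06 for Nr1d1 over Nr1d2 to 1.84 for Cry1 over Cry2. The share of other gene pairs without overlap was not computed.

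Levels of different genes were compared per kilobase of exon. At 72 h the order of mean levels was Nr1d1 (8.95 CPM per kilobase), Nr1d2 (8.68), Tef (8.15), Per1 (7.33), Clock (7.19), Dbp (7.14), Per3 (6.18), Per2 (5.79), Cry1 (5.36) and Cry2 (2.94). Neighbours in that order overlapped over libraries throughout, except that Cry1 lay above Cry2. At 0 h the order was Dbp (42.4 CPM per kilobase), Tef (34.8), Nr1d1 (30.6), Per3 (18.03), Nr1d2 (14.8), Per2 (14.3), Per1 (12.9), Clock (11.5), Cry2 (10.7) and Cry1 (5.60). The first 4 each stood clear of the next, Nr1d2 down to Cry2 overlapped their neighbours, and Cry1 lay below Cry2. The span between highest and lowest mean was 3.05-fold at 72 h and 7.57-fold at 0 h. Lengths are unions of all annotated exons, so a gene with many long isoforms is placed too low.

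The clock genes did not all vary together among the 72 h libraries. Replicate 3 was the highest of the 72 h libraries for 5 of the 10 genes (Per3, Cry1, Clock, Nr1d1 and Dbp), replicate 2 for 3 and replicate 1 for 2. Coefficients of variation had a median of 12.9% at 72 h and 9.86% at 0 h. Across all 6 libraries, which share the difference between the groups, the genes most like Dbp by Pearson correlation of log2 CPM were Pdzd2 (r = 0.999), Aktip (0.999) and Thrb (0.998). Those most like Nr1d1 were Nedd4l (1.000), Ubl4a (0.997) and Adi1 (0.997), and those most like Cry1 were Mms19 (0.933), Emc3 (0.931) and Cd164 (0.928).

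Beyond the 10 genes, 29 further genes of the clock pathway were all tested, and 6 were called higher, 7 lower and 16 not at all. The shares over all tested genes were 21.0% higher and 17.5% lower. Among the other activators, Bmal2, a paralog of Bmal1 that can also pair with CLOCK, was higher at 72 h, at 22.1, 20.1 and 31.8 CPM, against 2.16, 1.19 and 1.10 CPM at 0 h. Its log2 change of 4.05 ± 0.36 (edgeR adjusted p = 2.15e-05) was opposite in sign to those of the 9 clock genes that fell. Bmal1, the partner of CLOCK, had 21.9, 12.7 and 26.0 CPM at 72 h, against 29.9, 27.2 and 26.7 CPM at 0 h. It was not called (log2 change −0.47 ± 0.25, edgeR adjusted p = 0.175), but was called lower without 72 h replicate 3 (log2 change −0.68, adjusted p = 0.0303; 0.0303 to 0.378 over all alternatives). Npas2, which can stand in for Clock, had 3.01, 1.73 and 11.4 CPM at 72 h, against 0.432, 1.27 and 2.92 CPM at 0 h, with overlapping groups and no call.

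Among 5 further factors of E-box and D-box elements, 2 rose and 1, Hlf, fell. Bhlhe40, a repressor that competes for E-boxes, was at 216, 211 and 254 CPM at 72 h, against 84.1, 72.9 and 80.8 CPM at 0 h. Its log2 change was 1.52 ± 0.11 (edgeR adjusted p = 7.04e-06). Nfil3, the repressor that acts on the D-box elements bound by DBP, TEF and HLF, was at 26.2, 16.5 and 17.1 CPM at 72 h, against 8.22, 6.35 and 8.44 CPM at 0 h. For both genes every 72 h library was above every 0 h library, and Nfil3 had a log2 change of 1.38 ± 0.28 (edgeR adjusted p = 0.00314). Bhlhe41, a paralog of Bhlhe40, was not called (log2 change −0.43 ± 0.18, edgeR adjusted p = 0.0871), but was called lower under 5 of 17 alternatives. With all libraries these were upper quartile scaling (adjusted p = 0.0445), library size alone (0.0495) and no filter (0.0294). The others left out 72 h replicate 3 (log2 change −0.59, adjusted p = 0.00772) or that library and 0 h replicate 1 (0.0258), and the adjusted p ran from 0.00772 to 0.217 over all alternatives. Ciart, a repressor of CLOCK:BMAL1, was low throughout, at 2.43, 3.23 and 4.16 CPM at 72 h, against 6.40, 5.25 and 3.39 CPM at 0 h. It was not called.

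Rora and Rorb encode ROR receptors, whose products activate Bmal1 and compete with the REV-ERBs, and both fell. Rora was at 62.2, 62.7 and 80.1 CPM at 72 h, against 108, 115.1 and 117.3 CPM at 0 h (log2 change −0.73 ± 0.13, edgeR adjusted p = 0.00136). Its groups did not overlap. Rorb, which photoreceptor and other neural cells express, was at 8.10, 2.77 and 1.22 CPM at 72 h, against 17.5, 10.6 and 12.1 CPM at 0 h. Its call (log2 change −1.72 ± 0.58, edgeR adjusted p = 0.043) did not hold when 0 h replicate 1, 2 or 3 was left out (adjusted p = 0.142, 0.0797 and 0.0988), or 72 h replicate 2 (0.132), or 0 h replicate 1 together with 72 h replicate 3 (0.12). Over all alternatives its adjusted p ran from 0.00295 to 0.142. Without 72 h replicate 1 the log2 change of Rorb was −2.74. Photoreceptor markers, given above, were also lower at 72 h. They summed to 84.7, 60.8 and 185 CPM in 72 h replicates 1, 2 and 3, where Rorb was lowest in replicate 3. In 0 h replicates 1, 2 and 3 these markers summed to 1835, 740 and 933 CPM, the order that Rorb also had at 0 h. Their part in the fall of Rorb was not tested.

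Of 10 enzyme genes acting on clock proteins, 2 rose, 2 fell and 6 were not called. Usp2, a deubiquitinase gene with a daily rhythm in many tissues, fell by 1.88 ± 0.35 on the log2 scale (edgeR adjusted p = 0.00199). Btrc, a ubiquitin ligase component that acts on the Period proteins, fell by 0.75 ± 0.15 (edgeR adjusted p = 0.00303). The casein kinase gene Csnk1e and the kinase gene Gsk3b rose by only 0.33 ± 0.12 and 0.30 ± 0.10 (edgeR adjusted p = 0.0473 and 0.0448). Both calls depended on scaling and filtering with all libraries kept. Csnk1e and Gsk3b were not called with upper quartile scaling (adjusted p = 0.134 and 0.133), with library size alone (0.113 and 0.129), with no filter (0.0838 and 0.0894) or without robust dispersions (0.0544 and 0.0542). The call of Csnk1e, lost under 9 of 17 alternatives, was also lost without any one 0 h library or without 72 h replicate 1 (adjusted p = 0.0628 to 0.213; 0.035 to 0.213 over all alternatives). That of Gsk3b, lost under 11 of 17, was also lost without any one 0 h library or without 72 h replicate 1 or 2 (adjusted p = 0.0739 to 0.219; 0.0123 to 0.219 over all alternatives). Csnk1d, whose product phosphorylates the Period proteins, was not called, at a log2 change of 0.19 ± 0.11.

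Of 8 clock partner and output genes, Noct rose, Tsc22d3 fell and 6 were not called. Noct, a rhythmic gene named nocturnin, was at 61.6, 38.1 and 54.3 CPM at 72 h, against 19.98, 21.1 and 22.8 CPM at 0 h (log2 change 1.27 ± 0.19, edgeR adjusted p = 0.000623). Tsc22d3, a glucocorticoid-induced gene, fell by 1.12 ± 0.26 on the log2 scale (edgeR adjusted p = 0.00724). Wee1, a mitotic kinase gene with E-boxes in its promoter in mice, was just outside the threshold, at a log2 change of 0.74 ± 0.27 (edgeR adjusted p = 0.053). It was called under 6 of 17 alternatives, with all libraries by DESeq2 (adjusted p = 0.032), by limma voom (0.0422), with DESeq2 size factors (0.0485), without crystallin and mitochondrial genes (0.0478) and with a stricter filter (0.0496), and without 72 h replicate 3 (0.0292). Its adjusted p ran from 0.0292 to 0.177 over all alternatives. The oxidoreductase gene Por was not called at a log2 change of −0.25 ± 0.36, but without 72 h replicate 3 it was −0.76 (edgeR adjusted p = 0.000142; 0.000142 to 0.985 over all alternatives).

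**Figure D5:**
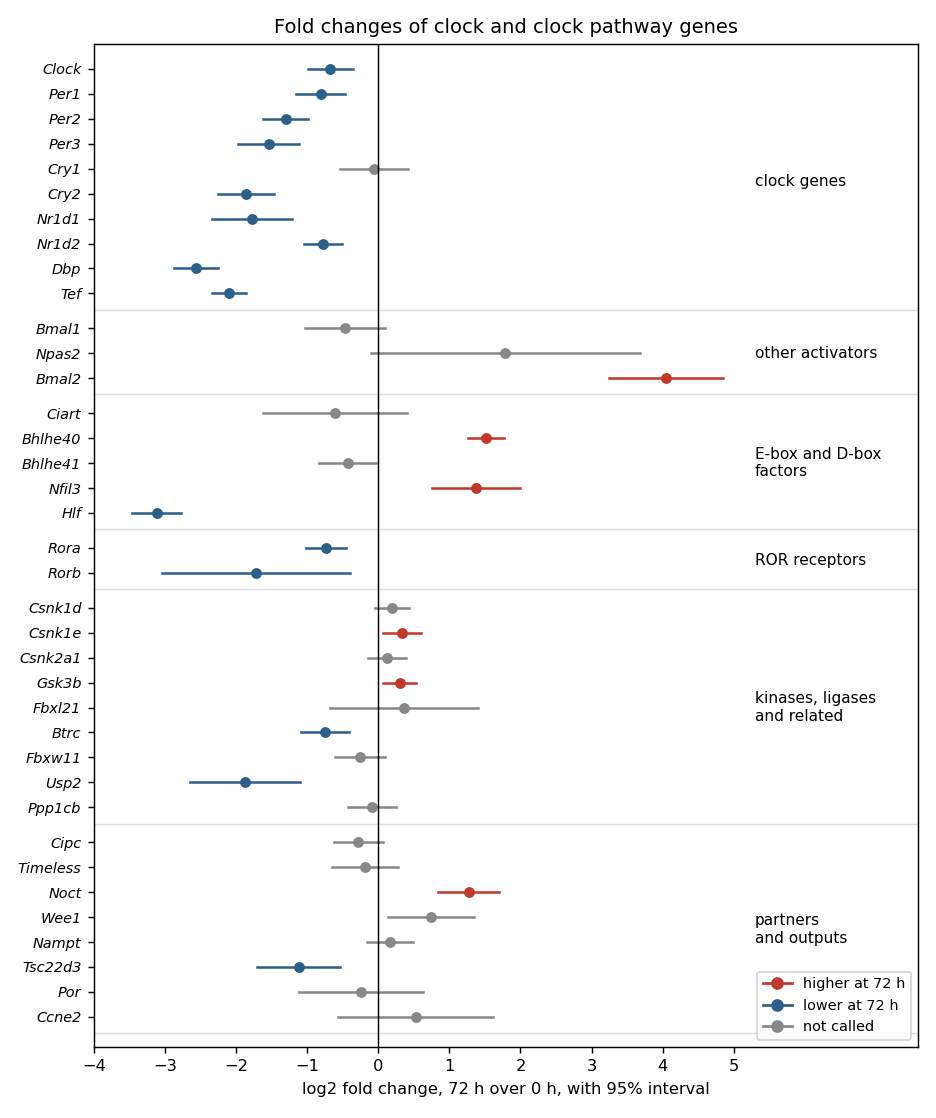
Log2 fold change, 72 h over 0 h, with 95% intervals not adjusted for multiple tests, for the 10 clock genes and 27 further pathway genes in their groups (red higher, blue lower, grey not called). In the top group 9 of 10 genes are blue, and among the other genes Bmal2 at 4.05 and Hlf at −3.12 are farthest apart.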

How the data were processed

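The authors deposited raw counts of reads for each Ensembl gene in 6 files, 1 library of 5 pooled capsules each, with no normalization. Per the labels' protocols, the RNeasy Mini Kit (Qiagen) gave the total RNA, and the stranded libraries came from Takara's SMARTer Pico v2 kit. The submitters' processing notes name HISAT2, HTSeq, edgeR and build GRCm39. Versions, annotation release and strand setting are not given in the sources used here. The 5 last lines of each file count reads in no gene (48.0% to 51.7% of reads at 72 h, 41.9% to 45.2% at 0 h) and were left out.

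Symbols came from GENCODE M21 by identifier (51947 of 56940 matched). The annotation lists Bmal1 and Bmal2 as Arntl and Arntl2. Exon lengths and overlaps are from the same GRCm38 annotation. Of 105 listed genes 104 were found. Genes were kept by edgeR's filterByExpr (minimum count 10, minimum total 15), scaled by TMM and tested for time alone with edgeR 4.0.16's robust quasi-likelihood test in R 4.3.3, two-sided, at an adjusted p under 0.05. Each standard error is the size of the log2 fold change over the root of F. Ratios used counts with 0.5 added and an exact permutation test over libraries. The correlation used log2(CPM + 0.5) and genes of at least 10 CPM.

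The genes and lists were chosen with earlier results of these data known. Named genes are the 10 clock genes and any of the 29 pathway genes, whatever their result (2 are counted but not reported here), with the 3 genes most correlated with Dbp, Nr1d1 and Cry1 and marker genes at 0 or with the highest level. Thra and Sphk2, named for their overlap with clock genes, and Pax6 and Six3, the markers left uncalled, fall outside this rule and were chosen after their values were seen. Alternatives were DESeq2 1.42.0 and limma 3.58.1 voom, other scalings and filters, a replicate block and each library left out. No 2 libraries of a group agreed within sampling noise (chi-square per degree of freedom at least 7.44). The series text describes 3 biological replicates for each interval, but nothing further says that pools came from separate animals. The p-values therefore measure only the spread between pools.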

Additional observations from a re-analysis of the deposited data

How the results depend on the processing

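The call and direction of the 9 clock genes that fell held under all 17 alternatives, and Cry1 was called under none of them (log2 change −0.21 to 0.04). Ranges of the log2 change were −2.66 to −2.51 for Dbp, −2.18 to −2.03 for Tef, −2.08 to −1.76 for Cry2, −2.13 to −1.59 for Nr1d1, −1.79 to −1.39 for Per3, −1.39 to −1.16 for Per2, −0.94 to −0.68 for Per1, −0.86 to −0.72 for Nr1d2 and −0.86 to −0.55 for Clock, with adjusted p no higher than 0.025. Upper quartile scaling moved the median of all genes to −0.11 and that of the clock genes to −1.51. All 45 alternative values of the 5 ratios kept their direction, which was largely fixed beforehand. The groups do not overlap for any ratio, so leaving out 1 library could not reverse a difference. The replicate block gives the same difference of means by arithmetic. Over all tested genes, leaving out 1 library gave 2511 to 3646 higher and 1877 to 3265 lower calls. Of 29 further pathway genes, 7 (Bmal1, Bhlhe41, Rorb, Csnk1e, Gsk3b, Wee1 and Por) changed their call under some alternative. For equal replicate numbers, deviations from the group mean correlated at r = −0.04, 0.07 and −0.01 (pairs 1, 2 and 3). Unequal numbers gave −0.089 to 0.097. So few libraries cannot show whether equal numbers mark the same mice. With the replicate block the clock genes again gave 9 lower and 0 higher calls, and 2921 genes were called higher and 2507 lower. Under the block Csnk1e (adjusted p = 0.055) and Gsk3b (0.074) were not called. Leaving out both 0 h replicate 1 and 72 h replicate 3 was added after seeing the data.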
